A study of Mus musculus with 52 samples.

Results

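The transcripts of 10 secreted signalling proteins were followed in mouse Cilia-APEX-IMCD3 cells: the interleukin 6 family cytokines Il11, Lif and Il6, the macrophage growth factor Csf1, and the chemokines Ccl2, Ccl20, Cxcl1, Cxcl5, Cxcl12 and Cx3cl1. The genes were taken by symbol from the count table of every library, which lists 24421 gene symbols, and all 10 were found. IMCD3 is an established cell line from the inner medullary collecting duct of the mouse kidney. In these cells CRISPR cytosine base editing with BE4-Gam was used to write homozygous missense disease alleles into Wdr34 or Wdr60, which encode the intermediate chains of dynein-2, the motor that carries cargo back down the cilium. Each mutant is a clone grown from a single cell, and the control clones, also from single cells, had received BE4-Gam and a guide vector with no target sequence.

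RNA was sequenced in 52 libraries, 4 technical replicates for each of 13 samples, where a sample is a clone in one state and is called a clone from here on. Non-ciliated cells are represented by 2 mutant clones, labelled Wdr34 and Wdr60, and 4 control clones, AB, 1, 2 and 3. Ciliated cells are represented by 3 mutant clones, labelled Wdr60, Wdr34 clone 1 and Wdr34 clone 3, and by 4 controls named D8, H12, A4 and G7. By the study's methods 1 Wdr34 clone also carries an unintended heterozygous change in Wdr34. The labels name no allele, and they give 10% serum for all samples, whereas the study's methods obtained cilia by serum starvation. The states therefore differ in serum and were sequenced at different times as well as in ciliation, and these cannot be told apart. The study's methods describe 4 control and 3 mutant clones in all, so samples of both states may come from the same clones. Tests by state treat the control samples as separate clones. The study did not include 1 of its Wdr34 clones in the non-ciliated analysis, so the mutants of each state are unlike sets. Beyond the edited gene the labels do not match clones across states.

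Cytokines and chemokines are small secreted proteins that act on receptors at the surface of nearby cells. Cytokines of the interleukin 6 family share the receptor chain Il6st, also called gp130, and signal through Jak kinases and Stat3. Chemokines bind G protein-coupled receptors and draw leukocytes along a gradient: Cxcl1 and Cxcl5 attract neutrophils, Ccl2 monocytes, Ccl20 lymphocytes and dendritic cells that carry Ccr6, and Cx3cl1 cells that carry Cx3cr1. Csf1 sustains macrophages. Renal tubule epithelium makes several of these factors under stress, and many of their genes are driven by the transcription factors NF-kB and AP-1.

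A library held between 14816218 and 28084979 counts, with a median of 17414011.5. Levels are given as CPM, the count scaled to the size of the library, so that 1 CPM stands for 14.8 to 28.1 counts here, with library sizes adjusted by the trimmed mean of M values over all 52 libraries. Of the markers of collecting duct epithelium, Cdh16 was read at 154 to 857 CPM in every clone, but the aquaporin gene Aqp2 was at or near 0 throughout, and 3 clones were low in epithelial genes: Epcam stood at 2.89 CPM in non-ciliated control 2 and 13.7 CPM in ciliated control G7, against 180 to 836 CPM in the other clones, and Krt8 at 76.5 CPM in ciliated Wdr34 clone 3. In 3 ciliated libraries the chemokine transcripts stood apart from the other 3 libraries of the same clone: library 1 of Wdr34 clone 1, library 2 of Wdr34 clone 3 and library 1 of control G7. They were singled out after the counts were seen, and the tests and descriptions that rest most on them are given with and without them. In numbers of genes at least 2-fold above or below the other libraries of a clone, the library farthest from its clone was library 1 of non-ciliated control AB, with 237 above and 631 below of 11982 genes, and leaving out all libraries numbered 1 is among the alternatives.

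Of the 10 genes, 6 had counts in all 52 libraries and passed the filter on low counts in both states: Il11, Lif, Csf1, Cxcl1, Cxcl5 and Cx3cl1. The other 4 were too low to judge in the comparisons of mutants with controls. Cxcl12, the ligand of Cxcr4 and Ackr3, had 0 counts in every library, which allows up to 0.107 to 0.202 CPM by library when 3 counts are taken as the limit. Il6, the family's name-giving cytokine, had 12 counts in all, spread over 7 libraries. Ccl2 had 578 counts, of which 571 came from ciliated Wdr34 clone 3. Ccl20 had 540 counts, and only 6 libraries reached 10 counts. Limits from a count of 0 cover counting error only.

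Levels of different genes were compared per kb of exon, from GENCODE vM21. In non-ciliated cells the median over clones was highest for Csf1, at 26.1 CPM per kb, followed by Cxcl1 at 13.03, Lif at 11.3, Cx3cl1 at 4.28, Cxcl5 at 2.81 and Il11 at 2.11 CPM per kb. In ciliated cells Cx3cl1 came first at 14.7 CPM per kb, followed by Csf1 at 10.8, Cxcl1 at 7.72, Lif at 5.64, Cxcl5 at 2.0 and Il11 at 0.479 CPM per kb. That order rests in part on the 3 libraries that stand apart: without them the ciliated medians were 8.82 for Csf1, 5.33 for Lif, 3.59 for Cxcl1 and 1.06 for Cxcl5, so that Lif came before Cxcl1. Between clones the ranges of these genes overlap widely: Il11 alone ran from 0.249 to 23.2 CPM per kb in ciliated clones. No exon of the 10 genes overlaps an exon of another gene in that annotation.

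Differences were tested with edgeR's quasi-likelihood test over the libraries of each group, and a gene was called when its Benjamini-Hochberg adjusted p over all genes tested was under 0.05 and its log2 fold change was at least 1 in size. The 4 libraries of a clone are technical replicates, so these p-values measure the spread between libraries and treat clones as more alike than they may be. The clone means were therefore also compared by an exact permutation test over clones. Where a single mutant is set against the controls of its state, that arm is 1 sample with technical libraries only, so a call there describes that sample and is no test of the mutant.

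Il11 signals through Il11ra1 and gp130 and is known as a driver of fibrosis in kidney and other organs. The gene lies on the minus strand of chromosome 7 (chr7:4772373-4782907 in GRCm38.p6, the build of all coordinates given here). The promoter table has windows for a pair of its start sites. The 250 bases before each are shown because Il11 was the cytokine called lower in mutants of both states and separated the control clones most among the interleukin 6 family, and capitals mark a match to the AP-1 motif TGANTCA. Each is written 5′ to 3′ on the strand of the gene. The window of the upstream start (chr7:4782858-4783107), whose first bases by coordinate lie within the span given for the gene, held no match to the AP-1 or the NF-kB consensus, and the window inside the gene (chr7:4778142-4778391) held 1 AP-1 match at -98 to -92 from its start. The same motif, searched on both strands, is found in 6.75% of the 32851 windows of that length in the table, and a match is a description of letters, not of binding. Among the 8 genes of the list with a window, Lif and Il6 also held an AP-1 match.
Il11 upstream start: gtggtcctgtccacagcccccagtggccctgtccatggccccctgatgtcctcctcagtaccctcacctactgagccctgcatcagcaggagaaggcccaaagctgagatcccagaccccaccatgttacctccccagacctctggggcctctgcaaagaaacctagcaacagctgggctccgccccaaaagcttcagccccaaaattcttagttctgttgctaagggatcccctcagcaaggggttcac
Il11 start within the gene: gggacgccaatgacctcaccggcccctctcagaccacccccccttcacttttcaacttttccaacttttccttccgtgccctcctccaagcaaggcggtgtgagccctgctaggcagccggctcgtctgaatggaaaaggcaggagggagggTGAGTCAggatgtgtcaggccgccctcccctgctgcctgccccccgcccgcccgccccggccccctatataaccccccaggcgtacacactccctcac

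Il11 was highest in ciliated control D8, where the 4 libraries read 51.2, 44.4, 41.6 and 55.8 CPM. Among ciliated clones control A4 came next, with 1.57, 4.74, 9.43 and 6.55 CPM. Controls H12 and G7 were low, with 0.355 to 0.638 CPM in H12 and 0.545 to 0.929 CPM in G7. The spread among ciliated controls thus spanned 93.2-fold between clone means, from 0.518 ± 0.118 CPM in H12 to 48.3 ± 6.47 CPM in D8 (SD, n = 4 libraries). The 3 ciliated mutants lay inside that span, at 0.642 ± 0.254 CPM in Wdr34 clone 1, 0.996 ± 0.340 CPM in Wdr34 clone 3 and 1.82 ± 0.245 CPM in Wdr60 (SD, n = 4 libraries). These are bulk samples, so fewer cells that make a transcript and less of it per cell cannot be told apart. Each mutant mean was above that of H12 and below those of A4 and D8.

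In non-ciliated cells controls 1, 2 and 3 were close together, with means of 7.14, 6.52 and 6.61 CPM. Control AB stood far below them, with libraries at 0.440, 0.363, 0.641 and 0.689 CPM. The mutants fell between, with 0.888, 1.26, 0.518 and 1.37 CPM in Wdr34 and 1.63, 2.45, 2.76 and 2.26 CPM in Wdr60. Ordered by mean over all 13 clones, 10 of the 12 neighbouring pairs had overlapping library ranges. The gaps lay below D8 and below ciliated Wdr60.

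**Figure D1:**
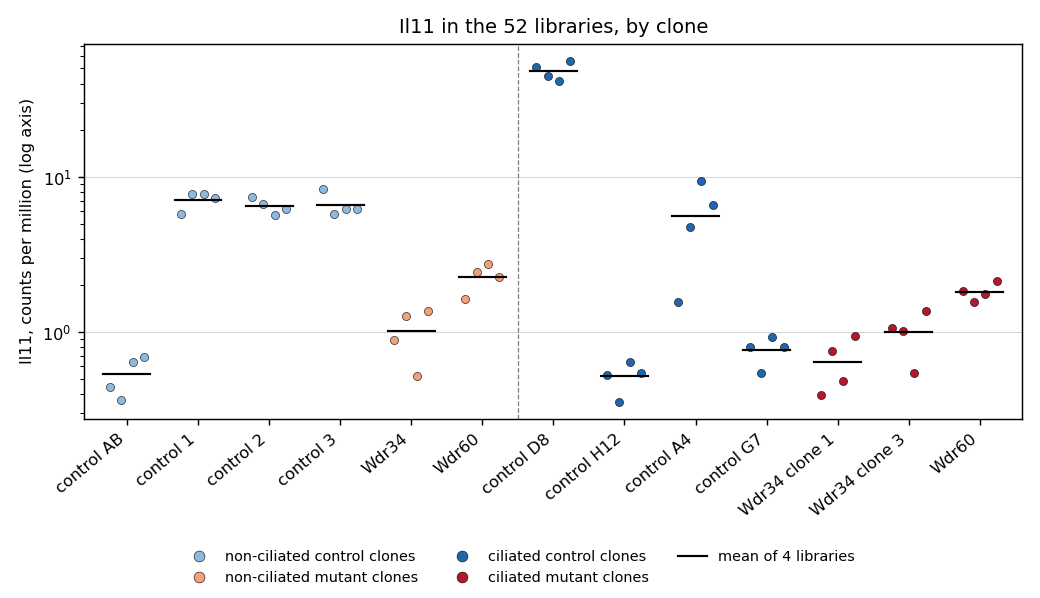
Il11 in CPM (log axis) in each of the 52 libraries, grouped by clone, with non-ciliated clones left of the dashed line and ciliated clones right of it; each point is a library and each bar the mean of 4. Ciliated control D8 averaged 48.3 CPM and ciliated control H12 0.518 CPM, and the 5 mutant clones lay between 0.642 and 2.27 CPM.

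Over libraries, Il11 was called lower in ciliated mutants than in ciliated controls, at a log2 fold change of -3.58 with an SE of 0.85 (edgeR, adjusted p = 0.0186), where 0.226% of 11950 genes were called lower. Without control D8 the log2 fold change was -0.98 and the call was lost (adjusted p = 0.393). It was also lost without Wdr34 clone 1 or 3, at -3.29 and -3.48, and whenever 1 library number was left out (adjusted p from 0.0864 to 0.138). Without the 3 libraries that stand apart it stayed at -3.56 (adjusted p = 0.0433). Il11 was also called lower in non-ciliated mutants, by -1.65 ± 0.50 (SE; edgeR, adjusted p = 0.0282), where 2.57% of 12012 genes were called lower. That call was lost without the Wdr34 mutant, at -1.19 (adjusted p = 0.253), and without control 1, 2 or 3, at -1.47, -1.54 and -1.52, and whenever 1 library number was left out (adjusted p from 0.0643 to 0.111), whereas without control AB it was -2.04.

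With clones as the unit, the Il11 means of mutants and controls overlapped in both states. The mean difference was -1.55 on the log2 scale in ciliated cells (exact permutation test, two-sided, p = 0.486 and smallest p possible 0.0286, 3 against 4 clones) and -1.25 in non-ciliated cells (exact permutation p = 0.4, smallest possible 0.0667, 2 against 4 clones). After adjustment over all genes every p for the 6 genes in these mutant comparisons was 1. In non-ciliated cells none under 0.05 was possible, since the smallest unadjusted p was 0.0667, so nothing is read from these adjusted values. Groups did not overlap in 2.01% of genes in ciliated cells and in 12.9% in non-ciliated cells, and none of the 6 genes was among them. When the libraries of a clone were summed and fitted with edgeR, no gene was called in either state. At an unadjusted p under 0.05 there were then 148 genes for the ciliated and 582 for the non-ciliated comparison. A limma fit with the clone as a block called 5 genes higher and 2 lower in ciliated mutants and 9 lower in non-ciliated mutants, and 0 of the 6 genes in either. Set against the controls of its state, the non-ciliated Wdr34 sample was at -2.35 for Il11 and passed the call rule, where 2.24% of genes did in either direction, and the Wdr60 sample was at -1.19 and did not. The Wdr34 sample no longer passed when any 1 library number was left out, with the library number as a block, or without control 1, 2 or 3. The mutant effect on Il11 was not found to differ between states (-1.93 ± 0.96, SE; edgeR interaction, adjusted p = 0.348).

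The 5 genes whose clone means were most like those of Il11, by Pearson's r of log2 CPM centred within each state over 13 clones and among 12543 genes, were Abcc4 (r = 0.915), Dll4 (0.913), 9430076C15Rik (0.910), Sgk1 (0.908) and Gdf15 (0.903). Abcc4 encodes an export pump of cyclic nucleotides, Dll4 a Notch ligand, Sgk1 a kinase induced by serum and glucocorticoids, and Gdf15 a stress-induced cytokine. Dll4 was at 10.8 CPM in D8 and 3.95 CPM in A4, against 0.378 to 0.744 CPM in the other 5 ciliated clones. Gdf15 was at 603 and 472 CPM in D8 and A4, against 58.9 to 153 CPM in those clones. Without D8 the r values were between 0.775 and 0.879 over 12 clones, and in the order given the genes then ranked 4, 14, 30, 22 and 6, so that others were more like Il11 in the remaining clones. The clones share their libraries and depth, and r is given as a description only.

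Lif, which keeps embryonic stem cells undifferentiated and is made by injured epithelium, signals through Lifr and gp130. It lies on the plus strand of chromosome 11 (chr11:4257568-4272514). It was highest in non-ciliated Wdr34, with libraries at 80.4, 89.6, 79.6 and 81.4 CPM, and lowest in ciliated control G7, with 3.41, 2.84, 2.41 and 3.51 CPM. The other non-ciliated clones averaged 22.1 CPM (control 2) to 52.1 CPM (control AB), and the other ciliated clones 14.2 CPM (control H12) to 57.6 CPM (control D8). Ciliated mutants were close to one another, at 24.5, 28.9 and 18.9 CPM, within the range of their controls. No call was made for mutants against controls, with -0.37 ± 0.43 in ciliated cells (edgeR, adjusted p = 0.691) and 0.54 ± 0.21 in non-ciliated cells (edgeR, adjusted p = 0.0756). The sign in ciliated cells was not stable: without D8 the value was 0.12, and the mean difference between clone means was 0.33.

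Il6 counts did not exceed 4 in any library. Of its 12 counts, 7 fell in ciliated Wdr60 (4, 2, 0 and 1) and 3 in ciliated Wdr34 clone 3 (1, 2, 0 and 0), and the remaining 2 in non-ciliated controls 2 and 3. No ciliated control library had a count, and at this depth no difference can be judged.

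Cxcl1 and Cxcl5 bind Cxcr2 on neutrophils, and both genes lie on the plus strand of chromosome 5, Cxcl5 at chr5:90759298-90761625 and Cxcl1 at chr5:90891245-90893121. Ccl20 lies on chromosome 1 (chr1:83116766-83119167). The 250 bases before the starts of Cxcl1 and Ccl20 are shown because these genes were high in the same 3 libraries, described next; capitals mark matches to the 10-base NF-kB consensus. It matched in Cxcl1 (chr5:90890995-90891244) at -71 to -62 on the plus strand and, one base on, at -70 to -61 on the minus strand, and in Ccl20 (chr1:83116516-83116765) at -80 to -71 on the minus strand. A match was found in 3.9% of the 32851 windows of that length, and among the 8 genes of the list with a window also in Il6 and Csf1.
Cxcl1: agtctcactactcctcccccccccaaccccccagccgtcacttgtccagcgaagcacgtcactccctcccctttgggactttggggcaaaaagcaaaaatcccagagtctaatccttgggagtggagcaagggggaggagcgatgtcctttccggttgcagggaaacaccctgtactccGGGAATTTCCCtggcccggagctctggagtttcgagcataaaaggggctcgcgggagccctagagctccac
Ccl20: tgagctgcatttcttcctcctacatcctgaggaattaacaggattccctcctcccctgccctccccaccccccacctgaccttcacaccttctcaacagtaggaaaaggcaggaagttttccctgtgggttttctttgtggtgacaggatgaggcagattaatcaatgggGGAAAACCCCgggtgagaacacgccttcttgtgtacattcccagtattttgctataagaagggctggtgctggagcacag

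Cxcl5 in ciliated Wdr34 clone 3 read 7.63, 281, 4.11 and 6.32 CPM, and in Wdr34 clone 1 29.2, 2.82, 0.780 and 2.33 CPM. In control G7 it read 6.52, 0.424, 0.310 and 0.877 CPM. A single library in each of these clones thus carried most of the Cxcl5 counts, 4955, 523 and 105 of them. That library was 46.7 times the mean of the other 3 in Wdr34 clone 3, 14.8 times in Wdr34 clone 1 and 12.1 times in control G7. Cxcl1 in the same libraries was 17.1, 5.60 and 4.20 times the mean of the other 3, at 197, 37.7 and 13.1 CPM. Ccl20 was 24.1, 8.09 and 3.74 times that mean, at 18.4, 2.24 and 0.807 CPM.

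In all 3 libraries Cxcl5, Cxcl1 and Ccl20 were at least 2-fold above the mean of the other libraries of the clone. They were the only 3 of 11164 genes to be so, with 0.05 CPM added to that mean. The 11164 genes are those with at least 10 counts in each of the 3 libraries, so a gene could enter by being high in them. Since the libraries were picked for these chemokines, their order is a description. The next genes by the lowest of their ratios were Tnfaip3 (1.61), Neurl3 (1.57), Nfkbie (1.55), Tnfsf15 (1.44) and Tlr2 (1.41). Tnfaip3 and Nfkbie encode feedback inhibitors of NF-kB. Of the other cytokine and chemokine genes with enough counts, 2 of 18, 2 of 21 and 1 of 16 were at least 2-fold above in the Wdr34 clone 1, Wdr34 clone 3 and G7 libraries, where 0.392%, 0.509% and 0.3% of all genes were. As examples chosen after the counts were seen, Cxcl2, another Cxcr2 ligand, had 72 counts in library 2 of Wdr34 clone 3 against 1 to 6 in the other libraries of that clone, and Icam1, a leukocyte adhesion molecule, 153 against 4 to 19. Il11 did not move with them, at 0.539, 1.03 and 1.06 times the mean of the other libraries in Wdr34 clone 1, Wdr34 clone 3 and G7. Csf1 was 1.91 and 2.03 times the mean of the others in the Wdr34 libraries and 1.10 times in G7. Of the 8 macrophage markers, 3 had enough counts to compare, with median ratios of 1.15, 1.15 and 1.01 in these libraries, and Adgre1, Itgam and Lyz2 had 0 counts in all 3. The collecting duct markers had no gene 2-fold up or down in them, with median ratios of 1.05, 1.001 and 0.974. What set these libraries apart was not tested.

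**Figure D2:**
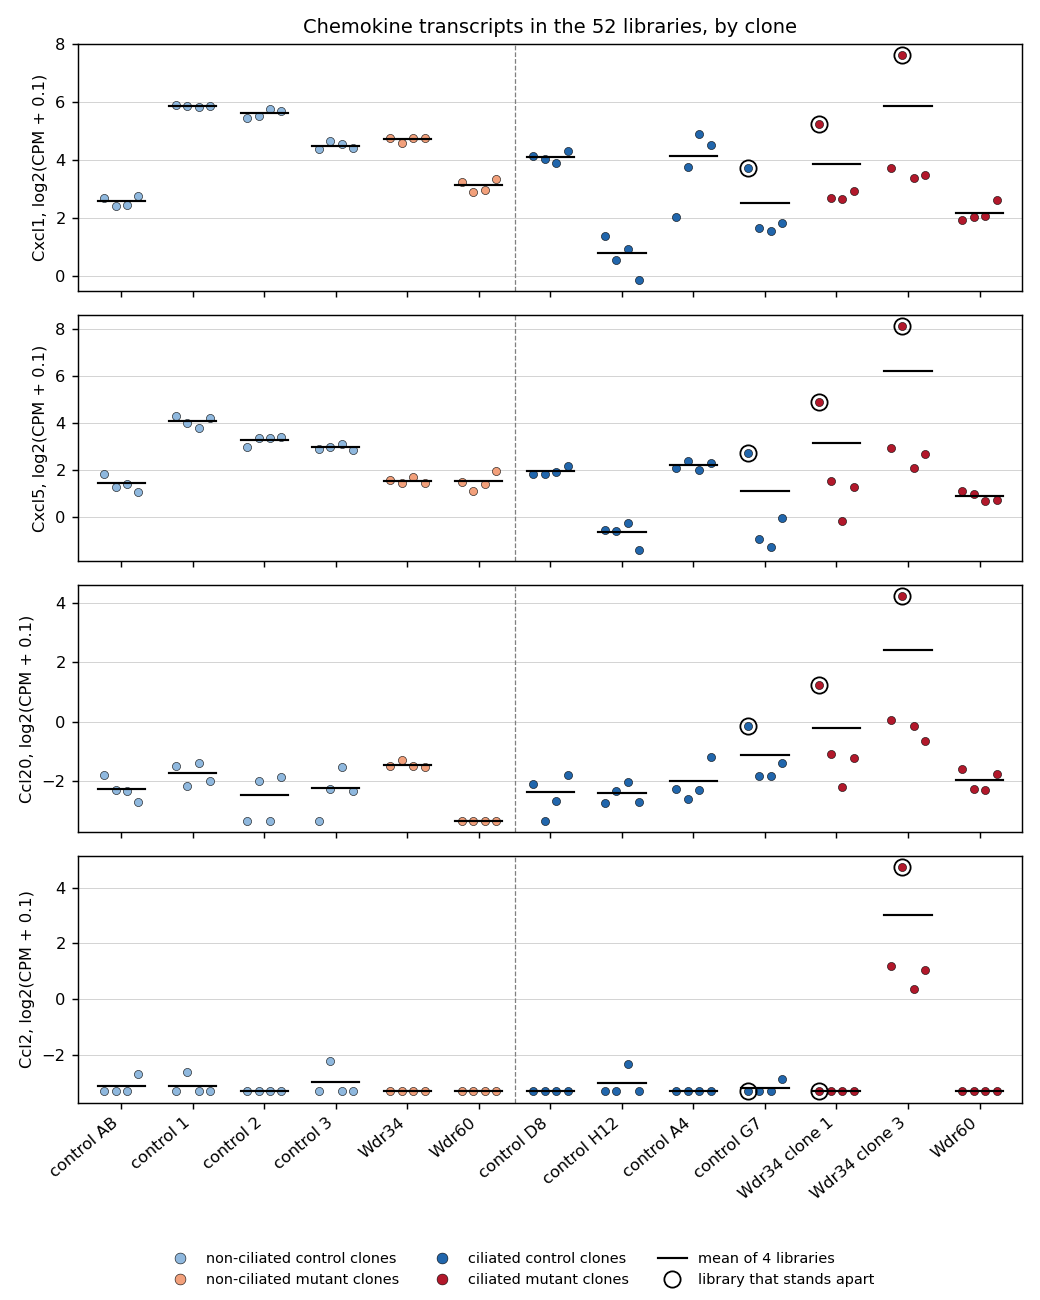
Cxcl1, Cxcl5, Ccl20 and Ccl2 as log2(CPM + 0.1) in the 52 libraries, grouped by clone (points, libraries; bars, means of 4 libraries; rings, the 3 libraries that stand apart; dashed line, border between non-ciliated and ciliated clones). The ringed libraries are the highest of their clone for Cxcl1, Cxcl5 and Ccl20, while Ccl2 is seen above 2 counts in Wdr34 clone 3 only.

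Cxcl5 was called higher in ciliated mutants than in ciliated controls, by 3.41 ± 0.82 on the log2 scale (SE; edgeR, adjusted p = 0.0193), where 0.418% of genes were called higher. Without the 3 libraries the value was 0.35 and the call was lost (adjusted p = 0.765). It was likewise lost without Wdr34 clone 3, at 0.95 (adjusted p = 0.391), in DESeq2, at 0.95 (adjusted p = 0.28), without control D8, at 3.61 (adjusted p = 0.0565), and whenever 1 library number was left out (adjusted p from 0.0864 to 0.429). The call was also lost with the library number as a block. The third mutant, Wdr60, read 2.07, 1.89, 1.48 and 1.56 CPM, inside the range of control means from 0.538 CPM (H12) to 4.48 CPM (A4). The exact permutation test over clones gave p = 0.314.

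In non-ciliated cells Cxcl5 was called lower in mutants, by -1.72 ± 0.36 (SE; edgeR, adjusted p = 0.00282). In the same comparison the collecting duct markers Cdh16 (-0.62) and Pax2 (-0.68) and the macrophage markers Cd68 (-0.67) and Csf1r (-0.72) were lower. Each had an adjusted p under 0.05 in edgeR but lay under the limit on fold change. The other markers tested of those lists did not reach that p, and the part of the markers was not tested. For Cxcl5 the mutants were nearly equal, at 2.80 ± 0.232 CPM in Wdr34 and 2.76 ± 0.725 CPM in Wdr60 (SD, n = 4 libraries). Controls 1, 2 and 3 stood above them at 16.9, 9.64 and 7.67 CPM. Control AB, at 2.58 ± 0.636 CPM (SD, n = 4 libraries), did not, and its libraries overlapped those of both mutants. The call held when any 1 clone or any 1 library number was left out, with values from -2.04 to -1.25. The exact permutation test over clones gave p = 0.333. Its smallest possible p, 0.0667, lies above the limit on p, so it cannot decide whether the call holds over clones. With the clone as a block in limma, Cxcl5 was at -1.45 and was not called (adjusted p = 0.578). As single samples the mutants were at -1.71 for Wdr34 and -1.73 for Wdr60, where 3.41% of genes passed the call rule in either direction for Wdr60. Both passed it, and neither did when any 1 library number was left out, without control 1, 2 or 3, or with the library number as a block.

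The mutant effect on Cxcl5 differed between states by 5.13 ± 1.05 on the log2 scale (SE; edgeR interaction, adjusted p = 0.00448), where 1.19% of 12544 genes were called in either direction. It was the only one of the 6 genes called. Without the 3 libraries the difference was 2.08 (adjusted p = 0.0769), and without Wdr34 clone 3 it was 2.69 (adjusted p = 0.0656). With the libraries of a clone summed it was about as large, at 5.09 (adjusted p = 1), in a fit that called 0 of 13994 genes.

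Cxcl1 was not called in either state. In ciliated cells the value was 1.29 ± 0.63 (SE; edgeR, adjusted p = 0.258), and it changed sign without the 3 libraries (-0.50), without Wdr34 clone 3 (-0.16) and in DESeq2 (-0.09). In non-ciliated cells it was -0.95 ± 0.46 (SE; edgeR, adjusted p = 0.162). The control clones differed among themselves by more: non-ciliated controls averaged 58.1, 49.2, 22.6 and 5.92 CPM in clones 1, 2, 3 and AB, and ciliated controls 17.4, 17.2, 5.61 and 1.64 CPM in A4, D8, G7 and H12. Control A4 was itself uneven, with 4.0, 13.4, 29.5 and 22.7 CPM. Its first library was also the lowest of its clone for Il11 (1.57 CPM) and Lif (24.9 CPM) and the highest for Cx3cl1 (85.4 CPM), and 155 of 11790 genes were at least 2-fold above and 298 at least 2-fold below the other A4 libraries there.

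Ccl2, the monocyte chemoattractant on chromosome 11 (chr11:82035577-82037452), was seen above 2 counts a library in a single clone. The libraries of ciliated Wdr34 clone 3 had 37, 469, 22 and 43 counts, and no other library had more than 2. The 16 libraries of the ciliated controls had 3 counts in all. Library 2 is the highest of this clone by far, and the other 3 had 102 counts together. With this 1 sample set against the ciliated controls, 3 of the 6 genes tested in every comparison passed the call rule on the higher side, Cxcl5 at 4.79, Cxcl1 at 2.46 and Csf1 at 1.61 on the log2 scale, where 3.64% of genes did on that side and 5.8% in either direction. Ccl2 and Ccl20 (4.82) passed as well, but they entered through this clone alone, and nothing is read from that. Without library 2 and the G7 library none of the 3 passed, with Cxcl5 at 1.31, Cxcl1 at 0.17 and Csf1 at 1.42. Csf1 also failed to pass when any 1 library number was left out, with the library number as a block, and without control D8, H12 or A4. In the samples Wdr34 clone 1 and Wdr60 none of the 6 genes passed, where 0.679% and 1.93% of genes were called. In Wdr34 clone 3 the fibroblast gene Dcn stood at 29.1 CPM, against 0 to 1.03 CPM in all other clones, while the summed fibroblast markers were at 31.6 CPM against 1.38 to 5.73 CPM, and 5 of the 8 markers did not reach 1 CPM in any clone. The part of this in the chemokine levels was not tested.

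Ccl20 outside those 3 libraries ran from 0 to 0.939 CPM. All 4 libraries of non-ciliated Wdr60 had 0 counts, and those of non-ciliated Wdr34 had 4, 6, 4 and 4. In library 2 of Wdr34 clone 3 it had 325 counts, in library 1 of Wdr34 clone 1 40, and in library 1 of G7 13. Only in clone 3 did every library have more than 10 counts.

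Cx3cl1, a chemokine made as a membrane-bound stalk and found on epithelium and endothelium, lies on chromosome 8 (chr8:94772180-94782427). Csf1 lies on chromosome 3 (chr3:107741048-107760469). Both were called by state, and neither was called when all mutants of a state were compared with its controls. Cx3cl1 averaged 9.78 to 19.2 CPM in the 6 non-ciliated clones and 37.6 to 91.1 CPM in 6 of the 7 ciliated clones. Ciliated control G7 was the exception, with 5.40, 3.69, 5.01 and 4.21 CPM, the lowest of all 13 clones. G7 is also one of the clones low in Epcam, and so is non-ciliated control 2, which had the lowest Cx3cl1 of the non-ciliated clones at 9.78 ± 0.393 CPM (SD, n = 4 libraries). Whether those are linked was not tested.

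Among controls, Cx3cl1 was called higher in ciliated than in non-ciliated cells, by 1.43 ± 0.33 on the log2 scale (SE; edgeR, adjusted p = 0.000418), where 6.29% of 11856 genes were called higher. Without G7 the difference was 1.81. With the clone as a block in limma this difference between controls was 0.87 and not called (adjusted p = 0.182). Over clones the controls overlapped through G7 (exact permutation p = 0.4, smallest possible 0.0286). The Wdr60 clone of ciliated cells was 2.01 on the log2 scale above the Wdr60 clone of non-ciliated cells. That sets 1 sample against 1, with technical libraries only, and between these samples 15.1% of genes were called in either direction, so the value is a description of them.

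Csf1 went the other way. The non-ciliated clones averaged 87.1 CPM (control 3) to 238 CPM (control 2), and ciliated controls 22.5, 27.2, 73.2 and 144 CPM in A4, D8, H12 and G7. The libraries read 239, 252, 236 and 227 CPM in non-ciliated control 2 and 27.4, 25.8, 26.8 and 28.6 CPM in ciliated control D8. Only G7 among the ciliated controls overlapped the range of the non-ciliated control means. Csf1 was called lower in ciliated than in non-ciliated controls, by -1.16 ± 0.31 (SE; edgeR, adjusted p = 0.00144), where 3.99% of genes were called lower. Without G7 the value was -1.85, and without A4, D8 or non-ciliated control 2 it was -0.88, -0.91 and -0.85, under the limit on fold change. Between the Wdr60 samples the value was -1.90, a description of 1 sample against 1. Cxcl1 (-1.70 ± 0.46, adjusted p = 0.00215) and Cxcl5 (-1.78 ± 0.42, adjusted p = 0.000492) were also called lower in ciliated controls by edgeR. With the clone as a block in limma, Csf1 (-1.42, adjusted p = 0.000802) and Cxcl5 (-2.22, adjusted p = 0.041) were still called, as was Cxcl1. Il11 was not called by state in edgeR, at 1.42 ± 0.69 (adjusted p = 0.077). DESeq2 called it higher, at 1.43 (adjusted p = 0.0464). Its sign rested on D8, without which it was -1.19, while without H12 or G7 it was called higher in ciliated controls, at 1.83 and 1.81. With the libraries of a clone summed, edgeR called 366 genes higher and 294 lower by state, and 0 of the 6 genes. Control clone means did not overlap by state in 23.1% of genes, and none of the 6 was among them, with exact permutation p from 0.0857 (Cxcl5) to 0.714 (Il11).

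Neither gene was called for all mutants against the controls of their state, although Csf1 passed the call rule in the single sample of ciliated Wdr34 clone 3, as given above. Csf1 in ciliated mutants averaged 28.5, 57.2 and 205 CPM in Wdr60, Wdr34 clone 1 and Wdr34 clone 3, a 7.20-fold range. Without the libraries that stand apart the Wdr34 clones averaged 46.6 and 163 CPM. The log2 fold change was 0.54 ± 0.43 against controls (SE; edgeR, adjusted p = 0.535), which was 0.29 without those libraries, turned to -0.65 without Wdr34 clone 3 and was called, at 1.24 (adjusted p = 0.0434), without control G7. In non-ciliated cells it was 0.21 ± 0.25 (SE; edgeR, adjusted p = 0.604). Cx3cl1 was 0.78 ± 0.37 in ciliated cells (SE; edgeR, adjusted p = 0.24) and 0.22 ± 0.14 in non-ciliated cells (SE; edgeR, adjusted p = 0.283).

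**Figure D3:**
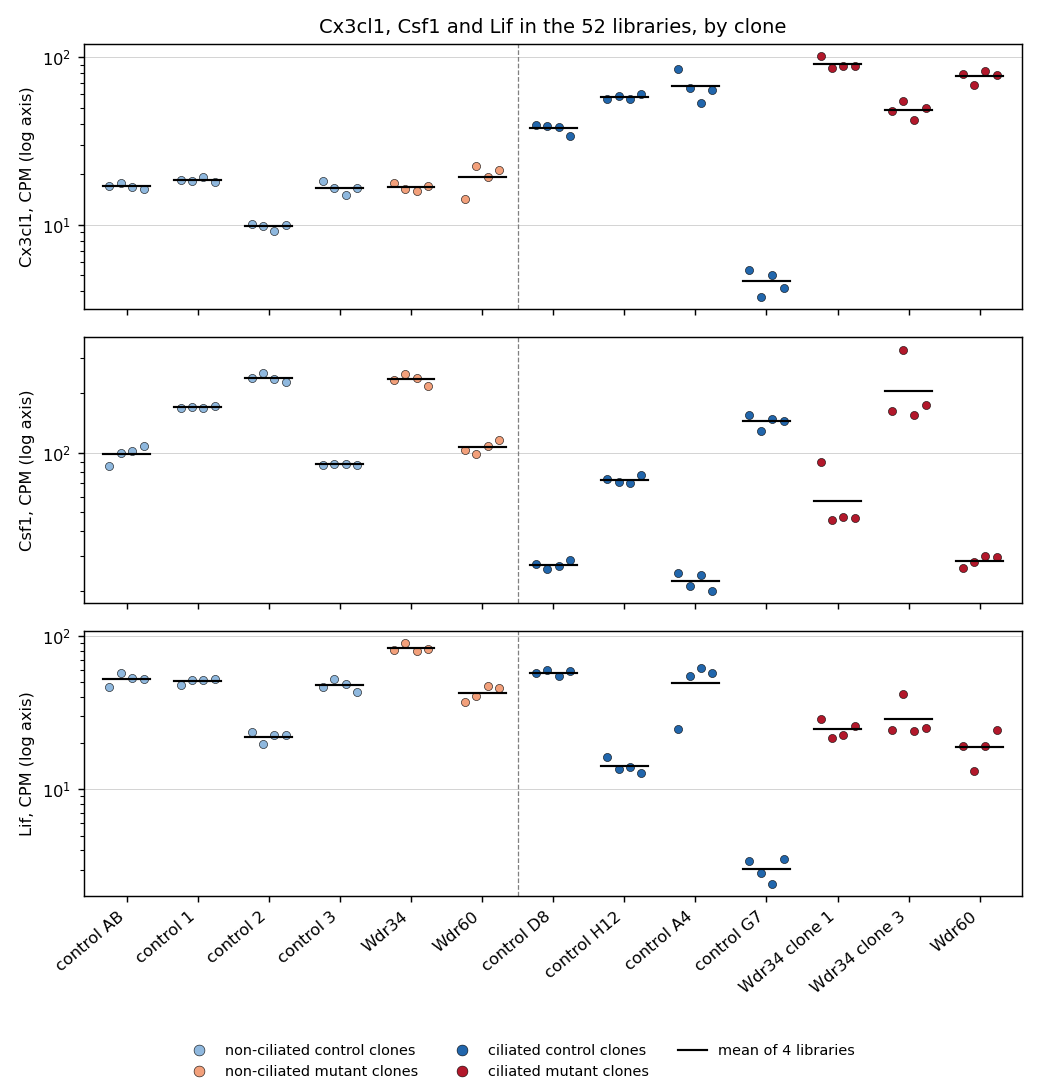
Cx3cl1, Csf1 and Lif in CPM (log axes) in the 52 libraries, grouped by clone, with non-ciliated clones left of the dashed line (points, libraries; bars, means of 4 libraries). Cx3cl1 averaged at most 19.2 CPM in non-ciliated clones and at least 37.6 CPM in ciliated clones other than G7, which averaged 4.58 CPM.

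The control clones of a state were also compared with one another, by edgeR over their technical libraries. Each clone is 1 sample, so this sets the clones against the spread between technical libraries only. In ciliated controls all 6 genes were called among the 4 clones, where 32.9% of 12325 genes were called, and in non-ciliated controls 5 of 6, where 25.6% of 12327 genes were called. The exception was Cx3cl1, whose non-ciliated control clones spanned 0.91 on the log2 scale. The span among ciliated controls was 6.54 for Il11, 4.25 for Lif, 3.90 for Cx3cl1, 3.42 for Cxcl1, 3.04 for Cxcl5 and 2.65 for Csf1, all on the log2 scale. For Il11 the span of 6.54 stands beside a mutant difference of -3.58 in ciliated cells, and for Cxcl5 the span of 3.04 beside 3.41. The 3.41 rests on the libraries that stand apart, as given above. Between clone means the mutant difference was 1.35 for Cxcl5 and -1.55 for Il11. A span sets the highest clone against the lowest, whereas a mutant difference sets all mutants against all controls.

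Over the list, 1 of the 6 genes tested was called higher and 1 lower in ciliated mutants, where 0.418% and 0.226% of all genes were, and 0 higher and 2 lower in non-ciliated mutants, where 0.491% and 2.57% were. In limma with the clone as a block 0 of the 6 were called in either state, with adjusted p = 0.578 for Cxcl5 and 0.889 for Il11 in non-ciliated cells and 0.9999 for both in ciliated cells. The median log2 fold change was 0.66 in ciliated and -0.37 in non-ciliated cells, beside -0.01 and 0.00 over all genes tested. The ciliated median was -0.11 without the 3 libraries that stand apart. These comparisons share no libraries with each other. Between genes, Cxcl1 and Cxcl5 had r = 0.895 over the 13 clone means centred by state and 0.856 over the 52 libraries centred by clone. These were 0.882 over clone means and 0.258 over 49 libraries without the 3 that stand apart, so that the likeness between libraries of a clone rests on them. Il11 and Lif had r = 0.385 and 0.526 with all libraries. They are descriptions over shared libraries.

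**Figure D4:**
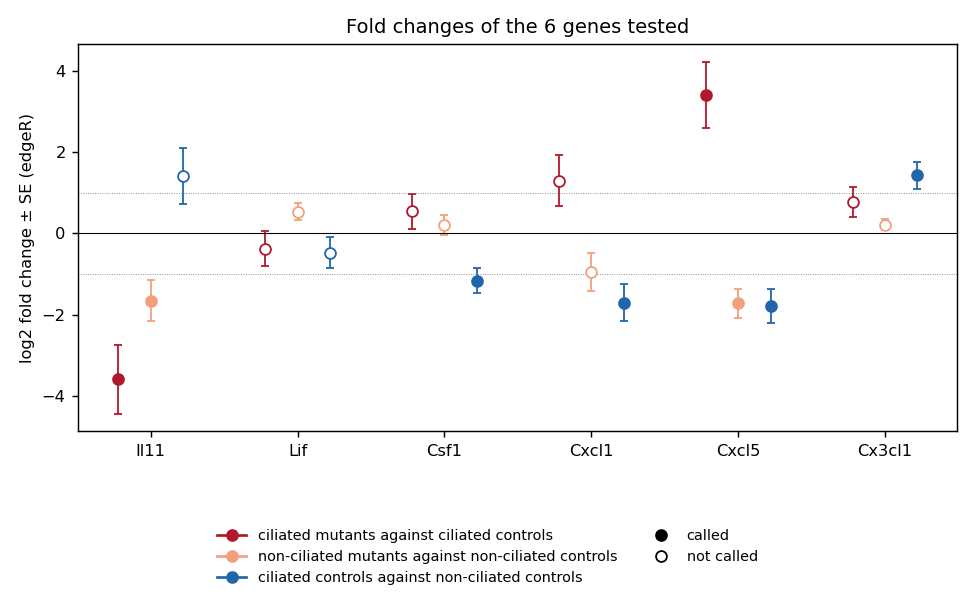
Log2 fold changes with standard errors from edgeR for the 6 genes tested, for mutants against controls in each state and for ciliated against non-ciliated controls (filled points, called; open points, not called; dotted lines, the limit on fold change). Cxcl5 is at 3.41 in ciliated and -1.72 in non-ciliated mutants, and Il11 at -3.58 and -1.65.

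The receptors of these ligands were read for context. The shared chain Il6st was high in every clone, with means from 98.3 CPM in non-ciliated control AB to 735 CPM in ciliated control G7. The AB libraries were uneven for it, from 45.2 to 117 CPM. Clone means of Il11ra1 ran from 5.60 to 20.6 CPM. Lifr varied most: it was at 236 CPM in ciliated G7, 96.9 CPM in Wdr34 clone 3, 83.7 CPM in non-ciliated control 2 and 15.2 CPM in non-ciliated control 1, against 0.430 to 4.13 CPM in the other 9 clones. Lifr was called lower in non-ciliated mutants (-4.93 ± 1.12, edgeR, adjusted p = 0.00459), where 2.57% of genes were called lower. The mutants were at 0.430 and 1.22 CPM, control 3 lay between them at 0.790 CPM, and AB was at 2.32 CPM. Il6ra, the receptor chain of Il6, was called higher in non-ciliated mutants (1.11 ± 0.26, edgeR, adjusted p = 0.00654), at 1.97 and 2.82 CPM against 0.694 to 1.90 CPM, where 0.491% of genes were called higher. In limma with the clone as a block neither was called, Lifr at -3.28 (adjusted p = 0.808) and Il6ra at 1.18 (adjusted p = 0.678). In ciliated mutants edgeR, DESeq2 and limma each called 0 of the 6 receptors tested, with 1 at an unadjusted p under 0.05 in edgeR, where 2296 of all 11950 genes were.

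By state, Il6ra (2.64 ± 0.31, edgeR, adjusted p = 7.58e-09) and Csf1r (2.66 ± 0.17, edgeR, adjusted p = 1.76e-14), the receptor of Csf1, were called higher in ciliated controls, and Ackr3 (-1.03 ± 0.40, edgeR, adjusted p = 0.027), a scavenger of Cxcl12, lower, where 6.29% and 3.99% of genes were called. The limma fit with the clone as a block still called Il6ra and Csf1r and not Ackr3 (-1.27, adjusted p = 0.0855). Csf1r was at 15.9 to 48.8 CPM in all non-ciliated and 169 to 302 CPM in all ciliated clones, without overlap. Over the control clones alone, 23.1% of genes did not overlap by state. Among controls Csf1r and its ligand were called by state in opposite directions, although the Csf1 means overlapped between states through G7. Of the Csf1r exon bases 15.1% overlap an exon of a gene on the other strand, and the strand setting of the counts is not given in the sources used here. Csf1r is also a macrophage marker, but Adgre1 was 0 in all clones and Itgam and Lyz2 at or under 0.032 CPM, and of the 8 macrophage markers 3 exceeded 1 CPM in any clone; the summed list, at 26.6 to 65.9 CPM in non-ciliated and 198 to 314 CPM in ciliated clones, is mostly Csf1r. All 6 endothelial markers stayed under 1 CPM. The fibroblast marker Col1a1 was called lower in ciliated controls (-1.46 ± 0.27, edgeR, adjusted p = 1.97e-05), at 0.349 to 2.26 CPM against 3.30 to 5.40 CPM in non-ciliated controls, and the collecting duct marker Cdh16 higher (1.08 ± 0.14, edgeR, adjusted p = 6.76e-08). With the clone as a block in limma Col1a1 was still called (-1.70, adjusted p = 0.00769). Cdh16 was then at 0.99 (adjusted p = 5.62e-05), under the limit on fold change, and was not called. Their part in the differences by state was not tested. The chemokine receptors Ccr2, Ccr6, Cxcr2 and Cx3cr1 were at 0 to 0.056 CPM, so that transcripts of the receptors through which Ccl2, Ccl20, Cxcl1, Cxcl5 and Cx3cl1 act were barely seen. Cxcr4 was under 1 CPM in every clone, with its highest level, 0.918 CPM, in Wdr34 clone 3.

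Of 44 other cytokine and chemokine genes, 19 could be tested in ciliated and 17 in non-ciliated mutants. In ciliated mutants 0 were called by edgeR, DESeq2 or limma, with 4 at an unadjusted p under 0.05 in edgeR, beside the 2296 of 11950 genes. By edgeR 3 were called lower and 0 higher in non-ciliated mutants: Ppbp (-1.93 ± 0.40, adjusted p = 0.00247), a Cxcr2 ligand, Tslp (-1.76 ± 0.50, adjusted p = 0.0201), a cytokine that alerts dendritic cells, and Il7 (-1.20 ± 0.28, adjusted p = 0.00634), a lymphocyte growth factor. Tslp and Il7 were low throughout, with non-ciliated clone means of 0.132 to 1.39 and 0.427 to 1.91 CPM. Blocking by clone in limma left 0 of the 17 called, with Ppbp at -1.73 (adjusted p = 0.218), Tslp at -1.31 (adjusted p = 0.902) and Il7 at -1.27 (adjusted p = 0.749), and 2.57% of all genes were called lower by edgeR. By state 19 were tested among controls: Il17d (2.88 ± 0.31), Ccl28 (2.58 ± 0.47) and Ccl5 (1.94 ± 0.35) were called higher in ciliated cells and Ppbp (-3.53 ± 0.50) lower, all by edgeR, where 6.29% and 3.99% of genes were. The Ccl5 call was lost with the clone as a block in limma (1.84, adjusted p = 0.0728), and those of Il17d, Ccl28 and Ppbp were kept.

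Of 27 listed genes of gp130, NF-kB and AP-1 signalling, 25 were tested in each state. In ciliated mutants edgeR called 0, with 9 at an unadjusted p under 0.05 (2296 of 11950 over all genes), and DESeq2 called 1 lower, the AP-1 subunit Fosb. In non-ciliated mutants Stat3 (-1.005 ± 0.20, edgeR, adjusted p = 0.00169), which transmits the signal of gp130, and Osmr (-1.07 ± 0.20, edgeR, adjusted p = 0.00124), a receptor chain of the same family, were called lower and 0 higher, with control AB again at the level of the mutants for Stat3 (71.8 CPM against 62.5 and 70.01 CPM) and 2.57% of all genes called lower. Neither was called with the clone as a block in limma, with Stat3 at -0.91 (adjusted p = 0.157) and Osmr at -1.08 (adjusted p = 0.362). By edgeR the NF-kB group had 9 genes tested and 0 called in either genotype comparison, and the AP-1 subunits 7 tested and 0 called. By state, Fos was called lower (-2.66 ± 0.35), and Relb (1.75 ± 0.12) and Pim1 (1.07 ± 0.11) higher, in ciliated controls by edgeR, where 3.99% of all genes were called lower and 6.29% higher. Fosl1, an AP-1 subunit, was at 69.96 and 45.2 CPM in D8 and A4, the ciliated clones highest in Il11, and at 0.385 to 10.1 CPM in the other ciliated clones. In non-ciliated mutants, where Il11 was lower, it was at 0.83 ± 0.26 (SE; edgeR, adjusted p = 0.0317). Over 13 clones its r with Il11 was 0.617. Fosb (0.769), Jund (0.754), Jun (0.741) and Fos (0.737) were nearer to Il11, and Fosl2 (0.546) and Junb (0.450) farther. Nearest of all listed genes was the NF-kB cofactor gene Nfkbiz (0.897), above every AP-1 subunit. Of the other NF-kB genes Rela was at 0.748, whereas Nfkb1 (-0.350), Nfkbia (-0.339) and Birc3 (-0.644) were negative.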

How the data were processed

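RNA of Cilia-APEX-IMCD3 clones was extracted with RNeasy columns, and libraries were prepared with a SMARTER kit and sequenced as paired ends. The authors mapped reads to GRCm38/mm10 and assigned them to genes using Rsubread 1.28.1 (featureCounts) under R 3.4.4, and the values they deposited are raw counts by symbol. Strand setting and the handling of multiply mapping reads are not given in the sources used here, so counts of near-identical genes are uncertain. The submitters' processing notes also name DESeq2 1.18.1. Groups and clones follow the labels. The members and gene lists were chosen with earlier results of these data known.

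Here, under R 4.3.3, tests used edgeR 4.0.16 (filterByExpr, TMM, glmQLFit and glmQLFTest), limma 3.58.1 (voomLmFit) and DESeq2 1.42.0, each comparison on the libraries of its own groups, with p-values adjusted over all genes tested. Clone means were compared on log2 CPM with a prior count of 2. The method was tested on simulated data with 200 changed genes. All 10 genes and 11 receptors are named, as is any listed gene called by edgeR in either mutant comparison or between the controls of both states, and the 5 genes most like Il11. Of 78 pairs of libraries within a clone 0 were identical, and their chi-square per degree of freedom was at least 1.99, so each library was kept. Alternatives changed the test, normalization, filter, unit of replication and call rule, added the library number as a block, or left out libraries and clones. Promoter windows (8 genes matched by symbol) and gene coordinates are from RefSeq, GRCm38.p6.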

Additional observations from a re-analysis of the deposited data

Results flagged for a closer look

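Within clones and among the 4 control clones of a state, 93 groups of 4 values were tested by Dixon's criterion at the 95% level. It asks whether a value stands far from the rest, and 20 groups were flagged. Chance would flag about 1 group in 20 if groups were independent. Here genes share libraries, so the total is not set against that rate. Of the 20, 13 are high values in the 3 ciliated libraries with high chemokine counts. Those libraries were singled out for such values, so these flags are a description only. In library 2 of Wdr34 clone 3 they were Cxcl5 (281 CPM), Cxcl1 (197 CPM), Ccl20 (18.4 CPM), Ccl2 (26.6 CPM), Csf1 (331 CPM) and Lif (41.8 CPM). In library 1 of Wdr34 clone 1 they were Cxcl5 (29.2 CPM), Cxcl1 (37.7 CPM), Ccl20 (2.24 CPM), Csf1 (89.2 CPM) and Cx3cl1 (102 CPM). In library 1 of control G7 they were Cxcl5 (6.52 CPM) and Cxcl1 (13.1 CPM). Ccl2 was tested only in ciliated Wdr34 clone 3, and Ccl20 only in ciliated Wdr34 clones 1 and 3, where their counts were highest. Their flags are included in the totals above, but nothing is read from them. What sets these libraries apart was not tested.

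The other 4 library values were smaller departures: Cxcl1 in library 2 of non-ciliated Wdr34 (23.96 CPM) and in library 4 of ciliated Wdr60 (6.04 CPM), Cxcl5 in library 1 of non-ciliated control 2 (7.76 CPM), and Cx3cl1 in library 4 of ciliated control D8 (34.0 CPM). Among control clone means, Il11 in ciliated D8 (48.3 CPM) was far above and Il11 in non-ciliated AB (0.533 CPM) far below the other controls, and Lif in non-ciliated control 2 (22.1 CPM) was far below.

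The mutant effect on Cxcl5 differed between ciliated and non-ciliated cells by 5.13 on the log2 scale (edgeR interaction, adjusted p = 0.00448). Without the 3 libraries the call was lost (2.08, adjusted p = 0.0769). With the clone as a block in limma 0 of the 6 genes were called, but so were 0 of all 12544 genes. At an unadjusted p under 0.05 that fit had 0 of the 6 genes and 146 of all genes.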

How the results depend on the processing

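Alternatives gave 1175 values for single genes, of which 1041 kept their direction and their side of the call, 89 kept the direction and lost a call, 15 gained one and 30 reversed, and 355 counts of called genes among the 10, of which 271 stayed within 1.5 times. Taking the clone as the unit of replication, by summing or as a block, left none of the 10 genes called for all mutants against controls. Counts for single mutants, and between the Wdr60 clones, describe 1 sample with technical libraries and are no test of a mutant or a state. With libraries of a clone summed, 0 of the 10 genes were called higher and 0 lower in ciliated mutants, 0 lower in non-ciliated mutants, 0 higher and 0 lower by state among controls, and 0 for the difference between states. With the clone as a block in limma the counts were 0 and 0 in ciliated mutants, 0 lower in non-ciliated mutants, 0 higher by state among controls and 0 for the difference between states. Without the 3 libraries that stand apart, 0 genes were called higher in ciliated mutants and 0 for the difference between states. Counts for Wdr34 clone 3 in this section can include Ccl2 and Ccl20, which entered through this clone alone, so nothing is read from those genes. DESeq2 called 0 higher in ciliated mutants, 2 higher by state, 2 lower in non-ciliated Wdr60, 1 lower in Wdr34 clone 1, and 3 higher and 1 lower in Wdr34 clone 3. Keeping genes with at least 1 count in any library gave 3 higher in ciliated mutants, 2 higher between the Wdr60 clones, 0 lower in non-ciliated Wdr34 and 2 lower in non-ciliated Wdr60. Requiring at least 10 counts in every library removed Il11 and, in part, Cxcl5 from the tests and left 0 higher and 0 lower in ciliated mutants, 1 lower in non-ciliated mutants, 0 for the difference between states, 1 lower in non-ciliated Wdr34 and 2 higher in Wdr34 clone 3. With no limit on the fold change 4 genes were lower between the Wdr60 clones and 1 higher in non-ciliated Wdr34.

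Leaving out 1 library number or 1 clone at a time gave 0 to 2 genes higher and 0 to 1 lower in ciliated mutants, 1 to 3 lower in non-ciliated mutants, 1 to 2 higher by state, 0 to 2 higher and 0 to 1 lower for the difference between states, 0 to 1 higher and 0 to 2 lower in non-ciliated Wdr34, 0 to 3 lower in non-ciliated Wdr60, and 1 to 4 higher and 0 to 1 lower in Wdr34 clone 3.

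The log2 fold changes that reversed when a library number or clone was left out ranged, in ciliated mutants, from -0.75 to 0.12 for Lif, from -0.65 to 1.24 for Csf1 and from -0.16 to 1.78 for Cxcl1. In non-ciliated mutants they ranged from -0.017 to 0.94 for Lif and from -0.47 to 0.67 for Csf1, by state from -1.19 to 1.83 for Il11, and for the difference between states from -2.41 to 0.68 for Il11 and from -0.84 to 1.04 for Csf1. Against single clones they ranged from -0.71 to 0.033 for Cxcl1 and from -0.050 to 0.22 for Cx3cl1 in non-ciliated Wdr34, and from -0.24 to 0.090 for Lif in non-ciliated Wdr60. In Wdr34 clone 1 they ranged from -0.74 to 0.13 for Lif, from -0.52 to 0.45 for Csf1, from -0.70 to 0.81 for Cxcl1 and from -0.27 to 2.05 for Cxcl5. In Wdr34 clone 3 they ranged from -0.49 to 0.36 for Lif and from -0.16 to 0.52 for Cx3cl1. With the clone as a block Lif was 0.40 in ciliated mutants and Il11 -0.44 by state. In DESeq2 Cxcl1 was -0.090 in ciliated mutants. Without the 3 libraries it was -0.50 there and -0.62 in Wdr34 clone 1, where Cxcl5 was -0.31. The causes were not tested. All of these reversed values belong to genes that were not called in the comparison as reported.

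The deviations of libraries of the same number had a mean r of 0.0281 over 84 pairs in ciliated cells (-0.28 to 0.718, 20 pairs over 0.1) and -0.00545 over 60 pairs in non-ciliated cells (-0.386 to 0.197, 8 over 0.1). Since not every pair was over 0.1, the libraries were taken to share only a number. With the library number as a block in edgeR, 0 genes were called higher in ciliated mutants, 0 lower in non-ciliated Wdr34, 0 lower in non-ciliated Wdr60 and 3 higher in Wdr34 clone 3, and over all genes 35 were higher and 17 lower in ciliated mutants.

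Over all genes, 50 were higher and 27 lower in ciliated mutants, against 66 and 63 in DESeq2, 230 and 63 with at least 1 count in any library, 15 and 8 with at least 10 counts in every library, 0 and 0 with clones summed, 5 and 2 with the clone as a block, and 17 to 146 and 5 to 197 when a library number or clone was left out. In non-ciliated mutants 59 and 309 stand against 126 and 439, 16 and 135, 0 and 0, 0 and 9, and 17 to 159 and 143 to 368 for the same filters, fits and omissions. By state, 746 and 473 stand against 1410 and 1112 and 538 and 294 for the filters and 366 and 294 with clones summed. For the difference between states, 141 and 8 stand against 211 and 22 in DESeq2, 45 and 4 with at least 10 counts, 0 and 0 with clones summed or blocked, and 7 to 451 and 0 to 134 when a library number or clone was left out. Against single clones, leaving out a library number or clone moved the counts from 34 and 243 to 13 to 96 and 62 to 413 for non-ciliated Wdr34, from 122 and 300 to 52 to 308 and 109 to 473 for non-ciliated Wdr60, from 27 and 57 to 3 to 100 and 10 to 214 for Wdr34 clone 1, from 457 and 271 to 366 to 798 and 120 to 834 for Wdr34 clone 3, and from 80 and 161 to 31 to 207 and 51 to 254 for ciliated Wdr60. At this depth a count of 0 allows a level of up to 0.107 to 0.202 CPM by library.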

Other observations

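In library 2 of ciliated Wdr34 clone 3 the high chemokine counts came with high counts of some of the listed genes of gp130, NF-kB and AP-1 signalling. Of 26 such genes with enough counts, 7 were at least 2-fold above the mean of the other libraries of the clone and 0 at least 2-fold below, where 0.509% and 0.533% of all 12186 genes were. The NF-kB cofactor gene Nfkbiz was at 120 CPM against 33.5 CPM, the inhibitor genes Nfkbia and Tnfaip3 at 74.5 against 28.6 and 35.7 against 13.4 CPM, and Socs3, which restrains gp130 signals, at 117 against 45.9 CPM. In the other libraries that stand apart, 0 of 25 genes in Wdr34 clone 1 and 0 of 24 in control G7 were at least 2-fold above, where 0.392% and 0.3% of all genes were. The interferon-induced chemokine Cxcl10 was at 21.7 CPM against 7.75 CPM in the Wdr34 clone 3 library. These are single libraries, and no test was made.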
